A study of Mus musculus with 4 samples.

Results

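Natural killer (NK) cells of mouse omental tumors were taken as the droplets that carried transcripts of NK receptors and lacked those of T cells, B cells and complement-bearing macrophages. A cell barcode was kept with at least 300 genes, at least 500 UMIs (unique molecular identifiers, the tags that count captured transcripts) and at most 15% of UMIs from mitochondrial genes. It was counted as an NK cell with at least 2 UMIs of Ncr1, Klrb1c and Klre1 in sum, at most 1 UMI of Cd3d, Cd3e and Cd3g, no UMI of Cd79a and at most 1 UMI of C1qa, C1qb and C1qc. By this rule 87 of 8332 kept barcodes from 3 tumor libraries were NK cells, out of 11253 kept barcodes in 4 libraries. They came to 63 of 2586 barcodes in KPCA.B, 17 of 3098 in KPCA.C and 7 of 2648 in KPCA.A tumors. Transcript counts chose these cells, so their levels of the gate genes, and of genes that go with them, are given as a description.

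The 3 libraries came from omental tumors of the lines KPCA.B, KPCA.C and KPCA.A in C57BL6J mice, with an age of 8 weeks in the labels, which name fallopian tube epithelial cells as the cell type. Each library pooled 4 tumors, so single tumors cannot be told apart, and each line had 1 library. All 3 tumor groups bear the name KPCA, and the labels do not spell out the alleles behind it. The fourth library, of KPCA ascites with an age of 9 weeks, held 1 barcode that met the rule among 2921. That barcode passed on Klre1 alone and is not used further.

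NK cells are innate lymphocytes that kill stressed, infected or transformed cells without prior sensitization. They release granules that hold the pore former perforin and proteases called granzymes, and they weigh signals from activating receptors for stress ligands against signals from inhibitory receptors for MHC class I. In mice, conventional NK cells depend on the transcription factor Eomes and mature towards a stage with CD11b and KLRG1, whereas type 1 innate lymphoid cells (ILC1) share NK receptors but often lack Eomes and carry the tissue-residence proteins CD49a and CXCR6. A gate on Ncr1, Klrb1c and Klre1 can hold both, and all cells that met the rule are called NK cells here.

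The promoters of the 3 gate genes and of the granzyme genes Gzma and Gzmb, on which the comparison of tumors turns, are shown with the RUNX core motif TGTGGT marked. RUNX factors, among them Runx3, act in the NK lineage. The sequences are from RefSeq on GRCm38.p6, read 5′ to 3′ on the strand of the gene, each a window around the transcription start with most of it before the start. Capitals mark TGTGGT or its reverse complement ACCACA.
Ncr1: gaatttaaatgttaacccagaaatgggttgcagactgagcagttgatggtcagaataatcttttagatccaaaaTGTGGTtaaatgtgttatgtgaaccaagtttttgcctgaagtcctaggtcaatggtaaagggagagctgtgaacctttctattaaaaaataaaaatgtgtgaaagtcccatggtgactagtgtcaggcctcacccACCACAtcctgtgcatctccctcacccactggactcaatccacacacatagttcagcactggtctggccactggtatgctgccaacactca
Klrb1c: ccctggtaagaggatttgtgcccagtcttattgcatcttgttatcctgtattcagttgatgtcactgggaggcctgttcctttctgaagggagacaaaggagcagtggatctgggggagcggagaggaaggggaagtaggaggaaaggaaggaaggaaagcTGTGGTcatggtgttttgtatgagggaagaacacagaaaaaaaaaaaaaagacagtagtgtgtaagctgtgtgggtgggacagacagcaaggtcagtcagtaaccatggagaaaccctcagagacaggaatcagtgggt
Klre1: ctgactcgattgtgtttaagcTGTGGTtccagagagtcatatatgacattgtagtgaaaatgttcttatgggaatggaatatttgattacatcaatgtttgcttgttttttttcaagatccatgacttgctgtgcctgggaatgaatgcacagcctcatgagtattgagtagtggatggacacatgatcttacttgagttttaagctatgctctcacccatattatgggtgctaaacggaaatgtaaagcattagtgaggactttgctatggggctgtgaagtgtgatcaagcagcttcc
Gzma: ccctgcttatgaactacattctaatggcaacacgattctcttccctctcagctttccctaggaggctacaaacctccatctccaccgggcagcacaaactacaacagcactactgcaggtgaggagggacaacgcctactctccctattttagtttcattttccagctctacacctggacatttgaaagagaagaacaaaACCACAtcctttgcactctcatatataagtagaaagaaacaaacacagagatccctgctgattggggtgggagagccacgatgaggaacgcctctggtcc
Gzmb: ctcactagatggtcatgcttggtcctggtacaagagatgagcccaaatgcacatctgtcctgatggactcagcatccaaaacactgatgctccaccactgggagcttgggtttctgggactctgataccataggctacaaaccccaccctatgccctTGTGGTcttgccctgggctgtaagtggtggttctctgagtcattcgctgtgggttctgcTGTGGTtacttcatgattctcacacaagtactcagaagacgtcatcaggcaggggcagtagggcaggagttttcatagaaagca
The Ncr1 window, chr7:4337465-4337764 on the plus strand, held 2 matches, the first 176 bases before the start. The Klrb1c window, chr6:128788592-128788891 on the minus strand, held 1 match, 89 bases before the start. The Klre1 window, chr6:129577963-129578262 on the plus strand, held 1 match, 229 bases before the start, and the window of a second annotated Klre1 start held none. The Gzma window, chr13:113100932-113101231 on the minus strand, held 1 match, 50 bases before the start. The Gzmb window, chr14:56262285-56262584 on the minus strand, held 2, the first 93 bases before the start.

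Of the 20 genes highest in NK cells over other barcodes, named further on, 16 matched a RefSeq promoter and 12 of these (75%) held TGTGGT on either strand. The same letters were in 18.9% of 27025 genes and in 16.8% of 32851 windows. The matched genes without it were Klra8, Klrb1f, Ms4a4b and Klrb1b. The gate genes are among the matched genes with TGTGGT, and the leading genes were ranked in cells that the gate genes chose. Several other matched genes are related members of the Klr family, so the matched genes are not independent of each other. Whether the share exceeds that of all genes apart from this overlap was not tested. A T-box letter string, GGTGTGA on either strand, was in 2 of the 16 genes (12.5%) and in 4.60% of all genes. These are matches of letters in a fixed window, and binding was not measured. Runx3 itself had 562 CPM in KPCA.B, 574 CPM in KPCA.C and 708 CPM in KPCA.A NK cells, where CPM is the UMIs of a gene per 1000000 UMIs of all NK cells of that library.

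The rule left NK cells well inside its limit in KPCA.B and KPCA.C and close to it in KPCA.A. The median sum of gate UMIs per NK cell was 7 with KPCA.B, 11 with KPCA.C and 3 with KPCA.A tumors. Just inside the limit, with exactly 2 gate UMIs, lay 6 cells of KPCA.B, 1 of KPCA.C and 3 of KPCA.A, of which 3, 0 and 2 had a Gzma UMI. Just outside, with 1 gate UMI, lay 7, 13 and 13 barcodes, of which 2, 0 and 1 had a Gzma UMI. Before the exclusions 107 barcodes of KPCA.B, 34 of KPCA.C and 10 of KPCA.A had at least 2 gate UMIs. Cd3 transcripts excluded 39, 13 and 2 of them, Cd79a 7, 2 and 0, and C1q transcripts 7, 5 and 1, where a barcode may meet more than 1 exclusion.

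No epithelial-type barcode reached the limit. These were defined by at least 5 UMIs of Krt8 and Krt18 and none of Ptprc, and 0 of 316 in KPCA.B, 0 of 1013 in KPCA.C and 0 of 877 in KPCA.A had 2 gate UMIs, which allows shares of up to 0.949%, 0.296% and 0.342%. Median depths were 4152, 4738 and 2030 UMIs in NK cells, against 29149, 55256 and 34063 UMIs in these barcodes. Gzma, a marker of NK cells that the rule did not use, had a UMI in 69 of 87 NK cells.

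Each line had 1 library, so no difference given here has a replicate check, and no test was made. Intervals are at 95% and cover counting error only. The NK cells summed to 364517 UMIs from KPCA.B, 94022 from KPCA.C and 18365 from KPCA.A, which makes 1 UMI worth 2.74, 10.6 and 54.5 CPM. The whole matrices held 40054369, 95130645 and 58591493 UMIs. Above the mitochondrial limit lay 22.5% of barcodes in KPCA.B, 24.3% of those in KPCA.C and 53.1% of those in KPCA.A. The median mitochondrial share of NK cells was 3.84%, 4.38% and 7.49% in KPCA.B, KPCA.C and KPCA.A. Kept barcodes shared between libraries numbered 16 for KPCA.B and KPCA.C, 2 for KPCA.B and KPCA.A, and 4 for KPCA.C and KPCA.A, and none of them was an NK cell.

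An NK cell of KPCA.B with 28289 UMIs had 44 UMIs of dendritic cell markers and 11 of macrophage and monocyte markers (Ccr2 and Ly6c2 left out), and one of KPCA.C with 10138 UMIs had 18 and 22. The other NK cells had fewer than 10 UMIs of dendritic cell markers. Whether these 2 cells were doublets was not tested. For genes named below, log2 ratios without them are given where the gene crossed the 2-fold limit. Counts of list members are from all NK cells unless stated.

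NK cells took the highest share of barcodes in KPCA.B tumors. They were 2.44% of kept barcodes (exact interval 1.88 to 3.11) in KPCA.B, 0.549% (0.320 to 0.877) in KPCA.C and 0.264% (0.106 to 0.544) in KPCA.A. The share in KPCA.B was 4.44 times that in KPCA.C (2.57 to 8.09) and 9.22 times that in KPCA.A (4.22 to 23.9). KPCA.C had 2.08 times the share of KPCA.A, with an interval of 0.818 to 5.92 that includes 1.

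KPCA.B was also highest among barcodes with a UMI of Ptprc, the leukocyte antigen CD45. There NK cells were 3.35% (2.59 to 4.27) in KPCA.B, 1.15% (0.671 to 1.83) in KPCA.C and 0.680% (0.274 to 1.40) in KPCA.A, and the ratio of KPCA.B to KPCA.C was 2.92 (1.69 to 5.32). Among NK and T cells together the NK share was 25.4% (20.1 to 31.3) of 248 in KPCA.B, 10.1% (5.97 to 15.6) of 169 in KPCA.C and 13.5% (5.59 to 25.8) of 52 in KPCA.A. KPCA.B was again highest, and the intervals of KPCA.C and KPCA.A overlap. With every barcode thinned to 1000 UMIs before the rule was applied, 31, 7 and 1 NK cells were left in KPCA.B, KPCA.C and KPCA.A, or 1.27%, 0.246% and 0.0414%. The ratio of KPCA.B to KPCA.C was then 5.15 (2.22 to 13.9).

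**Figure D1:**
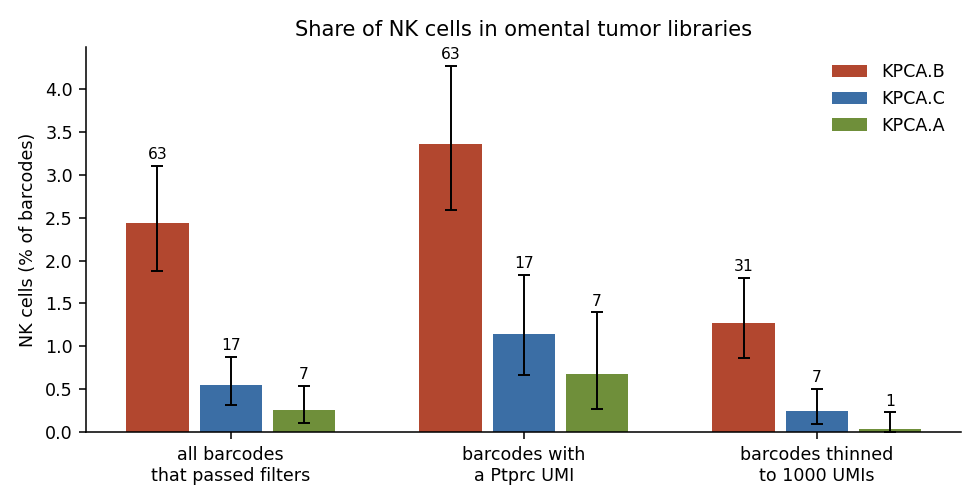
Share of NK cells in each tumor library, as percent of all kept barcodes, of kept barcodes with a Ptprc UMI and of barcodes thinned to 1000 UMIs. Bars are 1 library each, whiskers are exact 95% intervals for counting error, and numbers are NK cells. The KPCA.B bar is the highest in each set, at 2.44%, 3.35% and 1.27%.

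The transcripts that set NK cells apart from the other barcodes of the same library were those of cytotoxic lymphocytes. The 20 leading genes by mean log2 ratio over the 3 libraries were Gzma, Il2rb, Prf1, Klre1, Nkg7, Klrd1, Klrb1c, Klrk1, Txk, Ccl5, Klra8, Klrc2, Klrb1f, Ncr1, Ms4a4b, Ctsw, Xcl1, Klrc1, Gzmb and Klrb1b. Il2rb, the receptor chain through which IL-15 keeps NK cells alive, had 1484 CPM in KPCA.B, 1946 CPM in KPCA.C and 1416 CPM in KPCA.A NK cells, against 24.9, 8.94 and 3.40 CPM in the other barcodes of those libraries. It had a UMI in 62 of 63, 17 of 17 and 5 of 7 NK cells. Nkg7, a granule membrane protein, had 1619, 1712 and 1035 CPM in KPCA.B, KPCA.C and KPCA.A NK cells, against 24.8, 9.13 and 6.05 CPM in other barcodes. These genes lie close to the rule, so their distance from other barcodes is no finding of its own.

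**Figure D2:**
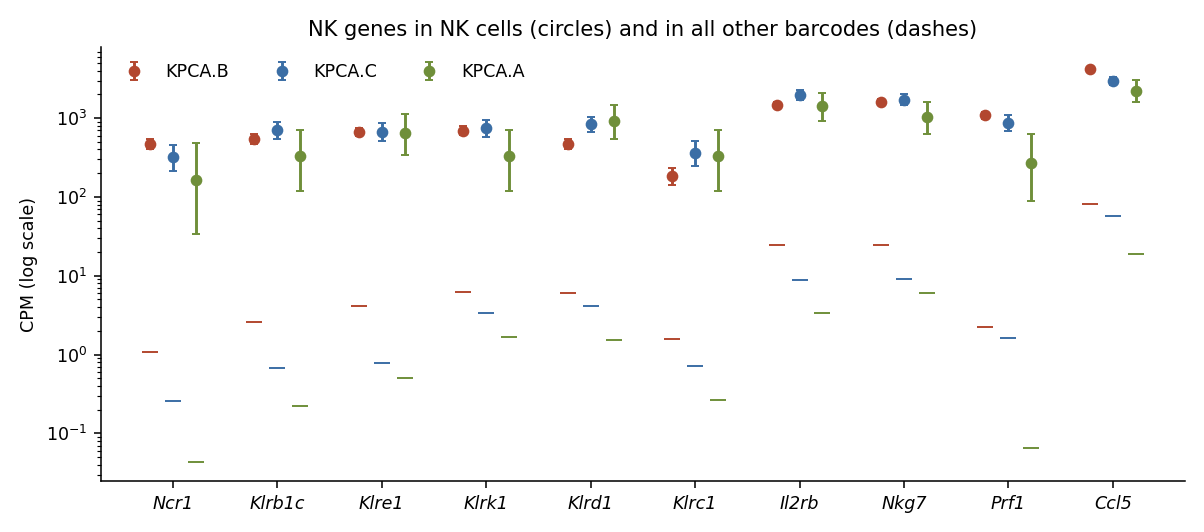
CPM on a log axis for 10 NK genes in NK cells (circles, with exact 95% counting intervals) and in all other barcodes of the same library (dashes), for KPCA.B, KPCA.C and KPCA.A. The genes lie higher in NK cells than in other barcodes in each library, for example Nkg7 at 1619, 1712 and 1035 CPM in KPCA.B, KPCA.C and KPCA.A NK cells against 24.8, 9.13 and 6.05 CPM.

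Beside CD8 T cells of the same tumors, NK cells carried more Gzma and Prf1 transcripts in KPCA.B and KPCA.C. CD8 T cells were barcodes with at least 2 Cd3 UMIs, at least 1 Cd8a or Cd8b1 UMI, no Cd4, Cd79a or gate UMI and at most 1 C1q UMI, and numbered 15, 26 and 3 in KPCA.B, KPCA.C and KPCA.A. Gzma, granzyme A, had 6548 CPM in NK cells and 107 CPM (39.2 to 232) in CD8 T cells of KPCA.B. In KPCA.C it had 2255 CPM in NK cells and 204 CPM (146 to 278) in CD8 T cells. Prf1, perforin, had 1089 CPM in NK cells and 178 CPM (85.3 to 327) in CD8 T cells of KPCA.B, and 872 CPM in NK cells and 291 CPM (221 to 377) in CD8 T cells of KPCA.C. The intervals of NK and CD8 T cells do not overlap for either gene in those 2 tumors. The rule for CD8 T cells leaves out those with gate UMIs. Barcodes with at least 2 Cd3 UMIs and at least 2 gate UMIs, 39 in KPCA.B and 13 in KPCA.C, were in neither group. The part of this choice of cells in the differences between NK and CD8 T cells was not tested.

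Gzmb, granzyme B, had 398 CPM (336 to 468) in NK cells and no UMI in CD8 T cells of KPCA.B, and 904 CPM (722 to 1118) in NK cells and 511 CPM (416 to 621) in CD8 T cells of KPCA.C. Nkg7 was close in both cell types of KPCA.B, at 1619 CPM in NK cells and 1601 CPM in CD8 T cells. Tyrobp, whose product DAP12 pairs with activating NK receptors, had 1402 CPM in NK cells and 71.2 CPM in CD8 T cells of KPCA.B, and 957 CPM in NK cells and 15.3 CPM in CD8 T cells of KPCA.C. The 3 CD8 T cells of KPCA.A are too few for a comparison.

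Between tumors, the granule genes did not differ in one direction. For each pair, genes with at least 30 UMIs over both libraries were compared by the log2 ratio with 20 CPM added, and ratios past 2-fold were counted. Of all 2869 genes compared between KPCA.B and KPCA.C, 197 (6.87%) were at least 2-fold higher in KPCA.B and 107 (3.73%) at least 2-fold lower, with a median log2 ratio of 0.07. Without the 2 cells with dendritic cell markers 180 genes were higher and 88 lower past 2-fold. Of the 21 listed cytotoxic granule genes 14 had enough UMIs. Of these, 4 lay higher in KPCA.B, 1 of them past 2-fold, and 10 lay lower, 3 of them past 2-fold, with a median log2 ratio of -0.31.

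Gzma was the granule gene past 2-fold on the higher side. It had 6548 CPM (6288 to 6816) in KPCA.B, 2255 CPM (1961 to 2579.6) in KPCA.C and 2396 CPM (1741 to 3216) in KPCA.A NK cells, 2.90-fold higher in KPCA.B relative to KPCA.C (2.52 to 3.36). It was found in 55 of 63, 11 of 17 and 3 of 7 NK cells, with medians of 12, 7 and 0 UMIs per cell. The deepest KPCA.B cell held 532 Gzma UMIs, 22.3% of those in that library. After thinning to 1000 UMIs per cell, 84.1%, 58.8% and 33.3% of NK cells in KPCA.B, KPCA.C and KPCA.A had a Gzma UMI, where 6 of the 7 KPCA.A cells were deep enough. Among epithelial-type barcodes, which were far deeper, 1.27%, 0.197% and 0% had one.

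Gzmb lay in the opposite direction. It had 398 CPM (336 to 468) in KPCA.B, 904 CPM (722 to 1118) in KPCA.C and 109 CPM (13.2 to 393) in KPCA.A NK cells, 2.27-fold lower in KPCA.B relative to KPCA.C (1.72 to 2.99). It had a UMI in 19 of 63, 9 of 17 and 2 of 7 cells, and 1 KPCA.B cell held 42.1% of the Gzmb UMIs of its library. In KPCA.B 19 of 63 cells had UMIs of both genes, 36 had Gzma alone, 0 had Gzmb alone and 8 had neither. In KPCA.C these numbers were 7, 4, 2 and 4 of 17 cells, and in KPCA.A 1, 2, 1 and 3 of 7 cells. Gzmc, granzyme C, a protease of strongly activated mouse lymphocytes, had 0 CPM in KPCA.B, 362 CPM in KPCA.C and 109 CPM in KPCA.A. Its level was 43.9-fold lower in KPCA.B relative to KPCA.C with KPCA.B set at a floor of 3 UMIs over the library. The exact interval of the ratio of KPCA.B to KPCA.C reached up to 0.0296. The Gzmc UMIs of KPCA.C came from 2 cells, 1 of which held 85.3% of them, and without it the log2 ratio of KPCA.B to KPCA.C was -1.95, where it was -4.25 with all cells.

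Of the remaining granule genes Srgn was past 2-fold and Prf1 was close between tumors. Prf1 had 1089 CPM (985 to 1202) in KPCA.B, 872 CPM (694 to 1083) in KPCA.C and 272 CPM (88.4 to 635) in KPCA.A NK cells, and the ratio of KPCA.B to KPCA.C, 1.25 (0.982 to 1.60), has an interval that includes 1. Srgn, the granule proteoglycan serglycin, had 576 CPM in KPCA.B, 1563 CPM in KPCA.C and 1089 CPM in KPCA.A and was 2.71-fold lower in KPCA.B relative to KPCA.C (2.18 to 3.37). In all other barcodes Srgn was also lower in KPCA.B, by a log2 ratio of -0.52. The log2 ratio of Srgn in NK cells was short of 2-fold without the cell with most Srgn UMIs in each library (-0.83), without the 2 cells with dendritic cell markers (-0.76) and with at least 3 gate UMIs per cell (-0.90). Serpinb9, an inhibitor that guards killer cells from their own granzyme B, had 631, 851 and 327 CPM in KPCA.B, KPCA.C and KPCA.A, at a ratio of 0.742 (0.573 to 0.969). The listed granzymes Gzmd, Gzme, Gzmf and Gzmg had no UMI in any NK cell.

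**Figure D3:**
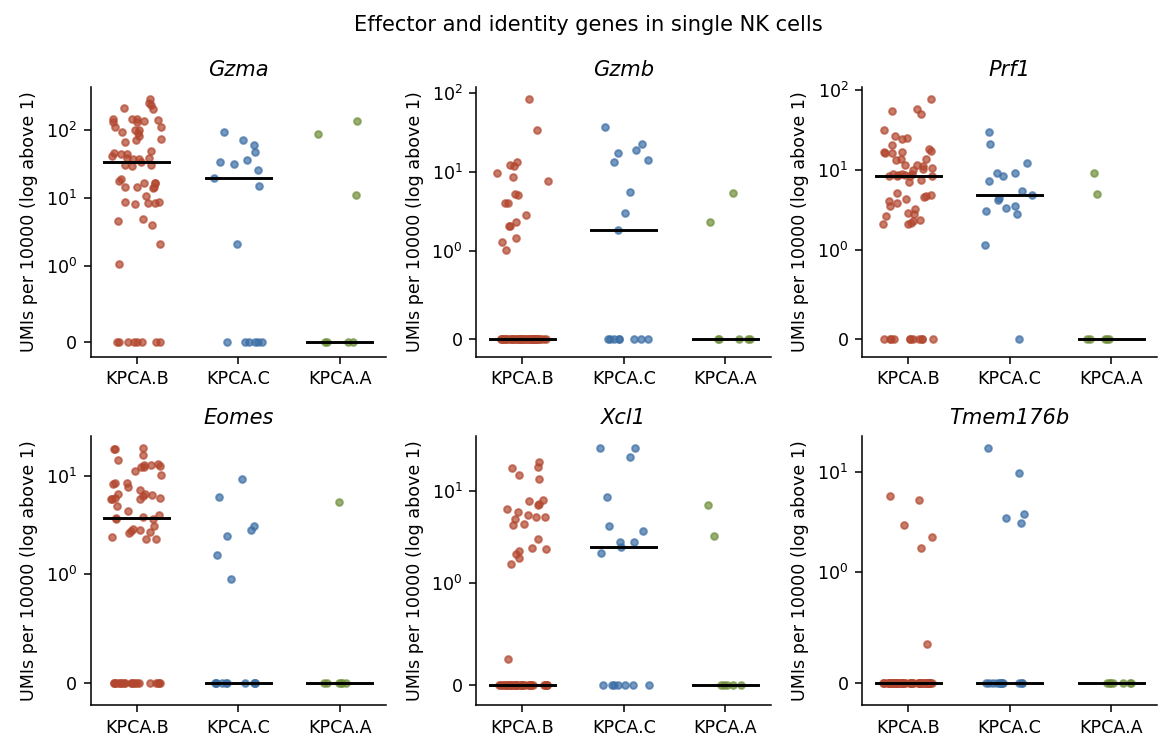
UMIs per 10000 UMIs of 6 genes in each NK cell of KPCA.B, KPCA.C and KPCA.A, on an axis that is linear below 1 and logarithmic above. Points are cells and black lines are medians. Gzma UMIs were found in 55 of 63, 11 of 17 and 3 of 7 cells and Eomes UMIs in 43 of 63, 7 of 17 and 1 of 7.

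Genes of the mature CD11b stage mostly lay higher in KPCA.B. Of 15 listed genes 12 could be compared, of which 10 lay higher and 2 lower in KPCA.B, 7 of them past 2-fold higher and 1 past 2-fold lower, with a median log2 ratio of 1.07. Zeb2, a transcription factor of terminal NK maturation, had 274 CPM in KPCA.B, 53.2 CPM in KPCA.C and 0 CPM in KPCA.A, and the ratio of KPCA.B to KPCA.C was 5.16 (2.14 to 16.2). Itgam, the CD11b chain, had 137, 42.5 and 218 CPM in KPCA.B, KPCA.C and KPCA.A, at a ratio of 3.22 (1.18 to 12.3). Klrg1, an inhibitory receptor of late NK cells, had 159, 53.2 and 163 CPM in KPCA.B, KPCA.C and KPCA.A, at a ratio of 2.99 (1.21 to 9.56). In KPCA.A both Itgam and Klrg1 were near or above the KPCA.B level, but close to the floor of 3 UMIs, which is 163 CPM there. With the mean of per-cell CPM in place of summed UMIs the log2 ratio of Klrg1 was 0.57, where the sum gave 1.29. The rest of the library differed along with some members and against others. Ly6c2, with a ratio of 2.80 (1.58 to 5.38), had a log2 ratio of 2.71 in all other barcodes, whereas Vim, with 2.15 (1.36 to 3.56), had -1.30 there. With at least 3 gate UMIs per cell the log2 ratios of Ly6c2 and Vim were 0.83 and 0.94, short of 2-fold. The gene past 2-fold on the lower side was Gzmb.

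Eomes, which directs the conventional NK fate, was higher in KPCA.B. It had 524 CPM (452 to 604) in KPCA.B, 128 CPM (65.9 to 223) in KPCA.C and 54.5 CPM (1.38 to 303) in KPCA.A NK cells, 4.11-fold higher in KPCA.B relative to KPCA.C (2.30 to 8.09). A UMI was found in 43 of 63, 7 of 17 and 1 of 7 cells, and after thinning in 33.3%, 17.6% and 0%. Among epithelial-type barcodes 4.75%, 4.94% and 1.60% had one. Itga2, which encodes the NK marker CD49b, had 203, 63.8 and 109 CPM in KPCA.B, KPCA.C and KPCA.A, and the ratio of KPCA.B to KPCA.C was 3.18 (1.39 to 8.95).

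The related factor Tbx21, T-bet, which conventional NK cells and ILC1 share, did not differ beyond counting error. It had 228 CPM (181 to 282) in KPCA.B, 181 CPM (105 to 289) in KPCA.C and 218 CPM (59.3 to 558) in KPCA.A, and the ratio of KPCA.B to KPCA.C was 1.26 (0.741 to 2.26). Of 24 listed transcription factors 19 could be compared, with Eomes and Zeb2 past 2-fold higher in KPCA.B, Bach2 and Bhlhe40 past 2-fold lower, and a median log2 ratio of -0.03. Bach2 was short of 2-fold without cycling cells (-0.69), without the 2 cells with dendritic cell markers (-0.98), by the mean of per-cell CPM (-0.93) and with 50 CPM added (-0.96). Bhlhe40, a factor of tissue-resident lymphocytes, had 255, 596 and 817 CPM in KPCA.B, KPCA.C and KPCA.A and was 2.33-fold lower in KPCA.B relative to KPCA.C (1.65 to 3.29), with a log2 ratio of -1.09 in all other barcodes. Id2, which all innate lymphoid cells require, had 1138, 2021 and 2069 CPM in KPCA.B, KPCA.C and KPCA.A and was 1.77-fold lower in KPCA.B relative to KPCA.C (1.49 to 2.11).

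The ILC1 and tissue-residence list lay lower in KPCA.B. Of 14 listed genes 7 could be compared and all 7 lay lower in KPCA.B, 5 of them past 2-fold, with a median log2 ratio of -1.06. With the mean of per-cell CPM, which weighs each cell equally, this median was -0.39, with 6 of 7 lower and 3 past 2-fold. Without the 2 cells with dendritic cell markers 6 could be compared, of which 5 lay lower, 3 past 2-fold, and the median was -1.03. Il7r, the IL-7 receptor chain, had 24.7 CPM (11.3 to 46.9) in KPCA.B, 415 CPM (295 to 567) in KPCA.C and 436 CPM (188 to 858) in KPCA.A NK cells, 16.8-fold lower in KPCA.B relative to KPCA.C (8.005 to 39.4). Its UMIs were in 8 of 63, 6 of 17 and 4 of 7 cells. Rora, a factor of helper innate lymphoid cells, had 65.8, 245 and 109 CPM in KPCA.B, KPCA.C and KPCA.A and was 3.72-fold lower in KPCA.B relative to KPCA.C (2.004 to 6.87). Ltb, lymphotoxin beta, had 279.8, 596 and 926 CPM in KPCA.B, KPCA.C and KPCA.A and was 2.13-fold lower in KPCA.B relative to KPCA.C (1.51 to 2.98), with a log2 ratio of 1.55 in all other barcodes. The log2 ratio of Ltb was short of 2-fold by the mean of per-cell CPM (-0.39), with 50 CPM added (-0.97), and without cycling cells (-0.67), the deepest cells (-0.80), the cells with most Ltb UMIs (-0.93) or the 2 cells with dendritic cell markers (-0.94). Tnfsf10, the list member at the median of -1.06, was short of 2-fold by the mean of per-cell CPM (-0.34) and with 50 CPM added (-0.86). The same held for Tnfsf10 without cycling cells (-0.83), the deepest cells (-0.35) or the cells with most Tnfsf10 UMIs (-0.75).

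Tmem176b, a membrane protein gene often listed for ILC1, had 19.2 CPM in KPCA.B, 298 CPM in KPCA.C and 0 CPM in KPCA.A NK cells and was 15.5-fold lower in KPCA.B relative to KPCA.C (6.62 to 42.1). Its UMIs were in 6 of 63, 5 of 17 and 0 of 7 cells, and 10 of its 28 UMIs in KPCA.C were in the cell with dendritic cell markers. It is not particular to lymphocytes in these tumors, since 51.6%, 86.7% and 64.4% of epithelial-type barcodes had a UMI, and the part of free RNA in its NK values was not tested.

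For Itga1 and Cxcr6, which encode residence proteins, the ratio of KPCA.B to KPCA.C had an interval that includes 1. Itga1, the CD49a chain, had 148 CPM (111 to 193) in KPCA.B, 159.5 CPM (89.3 to 263) in KPCA.C and 490.1 CPM (224 to 930.3) in KPCA.A NK cells. Cxcr6, the receptor for CXCL16, had 74.1 CPM (48.8 to 108) in KPCA.B, 128 CPM (65.9 to 223) in KPCA.C and 218 CPM (59.3 to 558) in KPCA.A. Ratios of KPCA.B to KPCA.C were 0.929 (0.516 to 1.77) for Itga1 and 0.580 (0.284 to 1.26) for Cxcr6. The value of Cxcr6 rests on few cells, since 1 KPCA.B cell held 11 of 27 UMIs and the KPCA.C cell with dendritic cell markers 7 of 12. The log2 ratio of Cxcr6 was -0.65 with all cells, -1.15 without the 5 KPCA.B cells that had a Cd3 UMI, -0.032 by the mean of per-cell CPM, and 0.33, in the other direction, without the 2 cells with dendritic cell markers. Itga1 UMIs were in 17 of 63, 5 of 17 and 6 of 7 NK cells, and its level was 3.31-fold lower in KPCA.B relative to KPCA.A (1.44 to 6.76). Among epithelial-type barcodes 3.16%, 5.13% and 14.6% had an Itga1 UMI. A UMI of Itga1, Cxcr6 or Tmem176b without one of Eomes was in 10 of 63 cells of KPCA.B, 6 of 17 of KPCA.C and 6 of 7 of KPCA.A. Eomes without these genes was in 31, 4 and 0 cells. Whether such cells were ILC1, and their part in the differences between tumors, was not tested.

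TGF-beta response genes mostly lay lower in KPCA.B. Of 15 listed TGF-beta response genes 9 could be compared, 1 higher and 8 lower in KPCA.B, 3 of them past 2-fold, with a median log2 ratio of -0.38. The 3 were Tnfrsf9, Rgs1 and Junb. Without cycling cells 3 of the 9 lay higher and 6 lower, at a median of -0.05, and by the mean of per-cell CPM 4 lay higher and 5 lower. With at least 3 gate UMIs per cell the log2 ratio of Tnfrsf9 was -0.97. Rgs1, which dampens chemokine receptor signals, had 217, 691 and 1198 CPM in KPCA.B, KPCA.C and KPCA.A and was 3.19-fold lower in KPCA.B relative to KPCA.C (2.26 to 4.49), with a log2 ratio of -1.57 in all other barcodes. Junb, an AP-1 subunit, had 272, 1085 and 1361 CPM in KPCA.B, KPCA.C and KPCA.A and was 3.99-fold lower in KPCA.B relative to KPCA.C (2.999 to 5.32), with -1.06 in all other barcodes. Without the deepest NK cell of each library the log2 ratio of Rgs1 was -2.22, where it was -1.59 with all cells. Junb is also 1 of 22 listed dissociation stress genes, of which 11 could be compared, 5 higher and 6 lower in KPCA.B, with Hsph1 past 2-fold higher, Junb past 2-fold lower and a median log2 ratio of -0.06.

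Genes of early CD27 NK cells were split, with 11 of 14 compared, 6 higher and 5 lower in KPCA.B, 4 of them past 2-fold lower and 0 past 2-fold higher, and a median log2 ratio of 0.04. Emb, an adhesion protein of immature NK cells, had 283, 904 and 762 CPM in KPCA.B, KPCA.C and KPCA.A and was 3.20-fold lower in KPCA.B relative to KPCA.C (2.37 to 4.31), with a log2 ratio of 0.42 in all other barcodes.

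Ly49 receptors, most of which bind MHC class I and which NK cells acquire in varied combinations, lay higher in KPCA.B. Of 12 listed Klra genes 6 had enough UMIs and all 6 lay higher in KPCA.B, 3 of them past 2-fold, with a median log2 ratio of 0.89. Klra8, the activating receptor Ly49H, had 466 CPM (399 to 542) in KPCA.B, 277 CPM (181 to 405) in KPCA.C and 218 CPM (59.3 to 558) in KPCA.A, and the ratio of KPCA.B to KPCA.C was 1.69 (1.11 to 2.66). Klra3 had 118, 10.6 and 0 CPM in KPCA.B, KPCA.C and KPCA.A, at a ratio of 11.1 (1.89 to 448). Klra1 had 85.04, 0 and 0 CPM in KPCA.B, KPCA.C and KPCA.A, 2.67-fold higher in KPCA.B with KPCA.C set at the floor of 3 UMIs. Klra7 and Klra9, at ratios of 1.17 (0.748 to 1.91) and 1.11 (0.647 to 2.003), did not differ beyond counting error. The log2 ratio of Klra9 was 0.13 with all cells, 1.55 without the cell with most Klra9 UMIs in each library and 2.13 without the deepest cell of each library. That of Klra8 was 0.71 with all cells, 1.28 without the deepest cells and 1.09 without cycling cells.

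Klra4, Ly49D, had 672, 308 and 0 CPM in KPCA.B, KPCA.C and KPCA.A NK cells, and the ratio of KPCA.B to KPCA.C was 2.18 (1.48 to 3.32). By the mean of per-cell CPM its log2 ratio was 0.97, just short of 2-fold. A Klra4 UMI was also in 17.1%, 79.1% and 35.5% of epithelial-type barcodes, so the symbol is not specific to NK cells in these counts. Reads of the closely similar Klra genes may be split or lost between copies, so their levels are uncertain. At least 1 Ly49 gene was found in 52 of 63 NK cells of KPCA.B, 9 of 17 of KPCA.C and 2 of 7 of KPCA.A. At least 3 were found in 21, 4 and 0 cells.

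**Figure D4:**
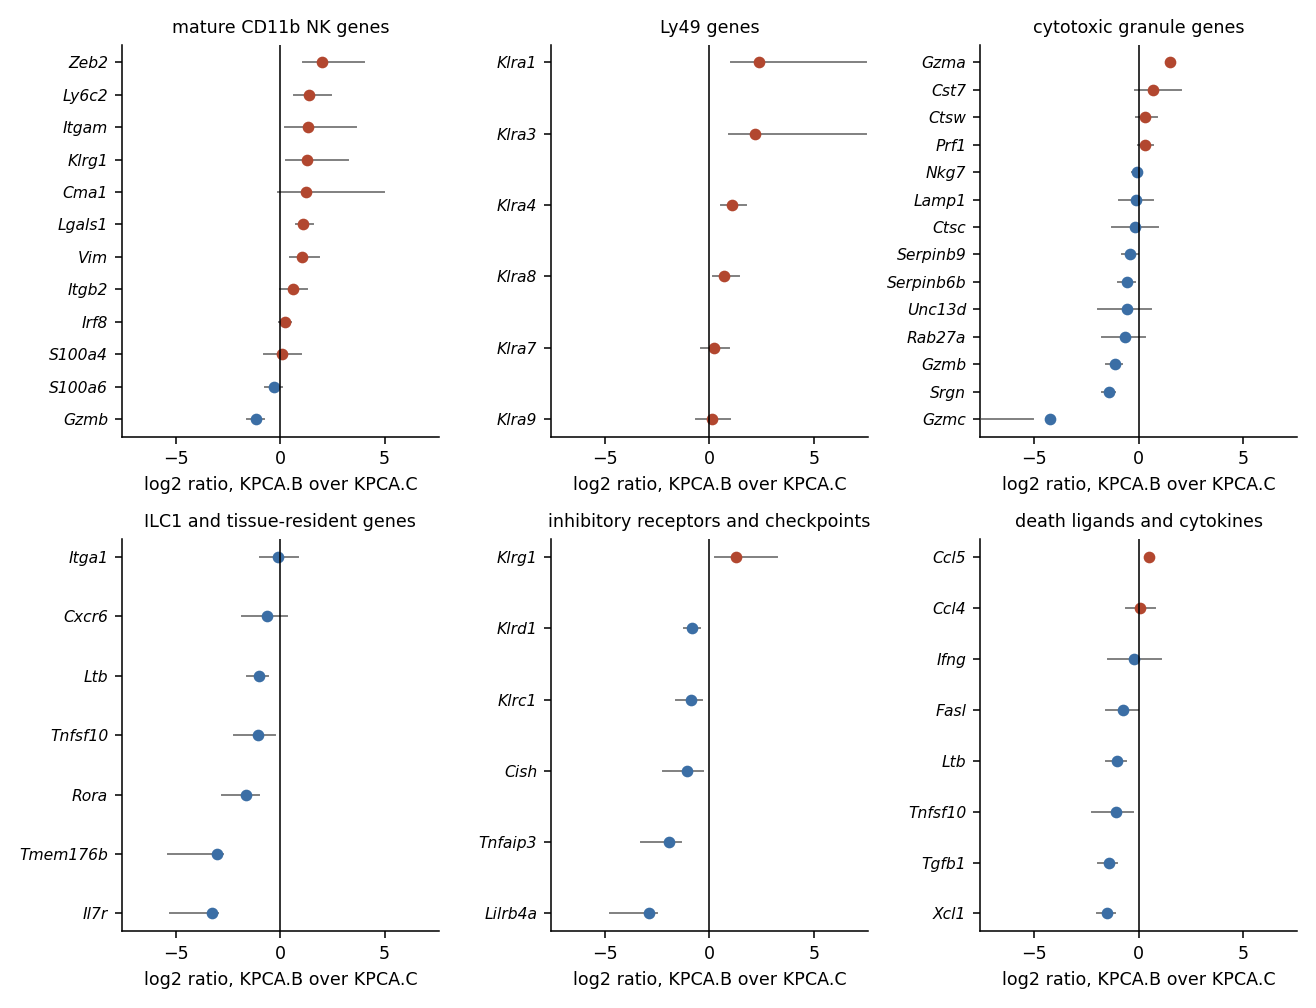
Log2 ratio of NK cell CPM, KPCA.B over KPCA.C with 20 CPM added (points), for genes of 6 lists with at least 30 UMIs over the pair. Grey lines are exact 95% counting intervals of the ratio without added CPM, so a point may lie off its line, and a line that reaches the edge of a panel runs on beyond it; red points lie higher and blue points lower in KPCA.B. Mature and Ly49 genes lie mostly right of 0 (10 of 12 and 6 of 6) and ILC1 genes left of it (7 of 7).

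Most of the compared genes of the inhibitory receptor and checkpoint list lay lower in KPCA.B, among them both chains of the CD94 and NKG2A receptor. Klrc1, which encodes the inhibitory NKG2A chain, had 184 CPM (142 to 233) in KPCA.B, 362 CPM (250.4 to 505) in KPCA.C and 327 CPM (119.9 to 711) in KPCA.A, 1.97-fold lower in KPCA.B relative to KPCA.C (1.26 to 3.02). Klrc2, which encodes the related activating chain NKG2C, had 373, 489 and 272 CPM in KPCA.B, KPCA.C and KPCA.A, and the ratio of KPCA.B to KPCA.C, 0.763 (0.542 to 1.09), has an interval that includes 1. Their partner Klrd1, CD94, had 469, 840.2 and 926 CPM in KPCA.B, KPCA.C and KPCA.A and was 1.79-fold lower in KPCA.B relative to KPCA.C (1.35 to 2.35). Of 16 listed inhibitory receptors and checkpoints 6 could be compared, 1 higher and 5 lower in KPCA.B, with 1 past 2-fold higher and 3 past 2-fold lower and a median log2 ratio of -0.999. Lilrb4a, an inhibitory immunoglobulin-type receptor, had 27.4, 329.7 and 163 CPM in KPCA.B, KPCA.C and KPCA.A and was 12.02-fold lower in KPCA.B relative to KPCA.C (5.74 to 27.5), with UMIs in 7 of 63, 9 of 17 and 2 of 7 cells. Tnfaip3, the NF-kappaB brake A20, had 49.4, 245 and 1035 CPM in KPCA.B, KPCA.C and KPCA.A and was 4.95-fold lower in KPCA.B relative to KPCA.C (2.56 to 9.74). The member higher in KPCA.B was Klrg1. Tnfaip3 acts inside the cell, so the list is not of receptors alone. Cish, also past 2-fold lower with a log2 ratio of -1.09, was short of it under 4 alternatives. It was at -0.74 by the mean of per-cell CPM, -0.69 without cycling cells, -0.90 with 50 CPM added and -0.95 without the deepest cells. Without the 2 cells with dendritic cell markers 5 members could be compared, 1 higher and 4 lower, 2 of them past 2-fold lower.

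Checkpoint receptors known from exhausted T cells were sparse. Ctla4 had 10.97, 245 and 218 CPM in KPCA.B, KPCA.C and KPCA.A NK cells, from 3, 4 and 2 cells, and Pdcd1 had 2.74, 117 and 54.5 CPM in KPCA.B, KPCA.C and KPCA.A, from 1, 2 and 1 cells. In KPCA.C 1 cell held 56.5% of the Ctla4 UMIs and 1 cell held 54.5% of the Pdcd1 UMIs. Havcr2, which encodes TIM-3, had no UMI in any NK cell.

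Activating receptors and their adaptors were close between KPCA.B and KPCA.C. Of 26 listed genes 20 could be compared, 11 higher and 9 lower in KPCA.B, with 3 past 2-fold higher and 0 past 2-fold lower, and a median log2 ratio of 0.06. Klrk1, which encodes the stress-ligand receptor NKG2D, had 694, 745 and 327 CPM in KPCA.B, KPCA.C and KPCA.A, at a ratio of 0.932 (0.713 to 1.23). Fcer1g, the adaptor of NKp46 and of the Fc receptor, had 1349.7, 1766 and 1416 CPM in KPCA.B, KPCA.C and KPCA.A. The 3 genes past 2-fold were Cd247, Lck and Cd2. Cd2 was short of it with at least 3 gate UMIs per cell (0.93), by the mean of per-cell CPM (0.81) and without the 2 cells with dendritic cell markers (0.94). Cd247, the CD3 zeta chain that NK cells use beside Fcer1g, had 112, 21.3 and 0 CPM in KPCA.B, KPCA.C and KPCA.A, and the ratio of KPCA.B to KPCA.C was 5.29 (1.37 to 45.1). The kinase gene Lck had 340.2, 128 and 218 CPM in KPCA.B, KPCA.C and KPCA.A, at a ratio of 2.67 (1.47 to 5.30).

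Secreted factors differed by gene. Of 16 listed death ligands and cytokines 8 could be compared, 2 higher and 6 lower in KPCA.B, 4 of them past 2-fold lower, with a median log2 ratio of -0.88. Without the deepest NK cell of each library 1 of the 8 was past 2-fold lower, at a median of -0.46. By the mean of per-cell CPM 2 were past 2-fold lower, at a median of -0.37. Without cycling cells 3 lay higher and 5 lower, 2 of them past 2-fold lower, at a median of -0.52. Xcl1, the chemokine that draws cross-presenting dendritic cells, had 307 CPM (253 to 369.7) in KPCA.B, 904 CPM (722 to 1118) in KPCA.C and 218 CPM (59.3 to 558) in KPCA.A NK cells, 2.94-fold lower in KPCA.B relative to KPCA.C (2.19 to 3.94). It was in 25 of 63, 10 of 17 and 2 of 7 cells, and after thinning to 1000 UMIs in 22.2%, 23.5% and 16.7%. Of its 85 UMIs in KPCA.C, single cells held 26, 24 and 17, and the 24 were in the cell with dendritic cell markers. The KPCA.B cell with such markers held 15. Ccl5, a chemokine for T cells and NK cells, had 4228 CPM (4019 to 4444) in KPCA.B, 2946 CPM (2609 to 3314) in KPCA.C and 2233 CPM (1602 to 3029) in KPCA.A, and the ratio of KPCA.B to KPCA.C was 1.43 (1.26 to 1.64). Ifng, the main effector cytokine of NK cells, had 71.3, 85.1 and 109 CPM in KPCA.B, KPCA.C and KPCA.A, at a ratio of 0.838 (0.369 to 2.14). Without the cell with most Ifng UMIs in each library its log2 ratio was 0.56, where it was -0.20 with all cells. Tgfb1 had 263, 745 and 163 CPM in KPCA.B, KPCA.C and KPCA.A, and 1 KPCA.C cell held 38.6% of its UMIs there. Without the cell with most Tgfb1 UMIs in each library the log2 ratio was -0.92, where it was -1.43 with all cells.

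Receptors for IL-18 and IL-12 were found in NK cells of all 3 tumors. Il18rap had 527, 574 and 381 CPM in KPCA.B, KPCA.C and KPCA.A, and Il12rb2 had 85.04, 85.1 and 109 CPM in KPCA.B, KPCA.C and KPCA.A NK cells. The KPCA.A value of Il12rb2 lies below the floor of 3 UMIs, 163 CPM in that library. Of 16 listed cytokine receptor genes 10 could be compared, 2 higher and 8 lower in KPCA.B, with Il7r past 2-fold and a median log2 ratio of -0.25. Il2ra, the high-affinity IL-2 receptor chain, had 21.9, 213 and 0 CPM in KPCA.B, KPCA.C and KPCA.A, and 1 KPCA.C cell held 90% of its UMIs in that tumor.

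In KPCA.B 5 cells, in KPCA.C 1 cell and in KPCA.A 1 cell had at least 3 UMIs of mitosis genes. The shares were 7.94% (2.63 to 17.6), 5.88% (0.149 to 28.7) and 14.3% (0.361 to 57.9), so no difference between tumors was detectable at this number of cells. The KPCA.C cell and the KPCA.A cell had 3 such UMIs each, just at the limit. At least 10 were found in 4 of 63, 0 of 17 and 0 of 7 NK cells of KPCA.B, KPCA.C and KPCA.A. The 5 KPCA.B cells held 28.3% of the NK UMIs of their library, with a median of 18788 UMIs, against 3838 UMIs in the other 58 cells. The deepest, with 39696 UMIs, had 356 UMIs of mitosis genes and 532 of Gzma. The next, with 28289 UMIs, had 204 of mitosis genes, 24 of Eomes and 0 of Gzma. It is the KPCA.B cell with dendritic cell markers, and had 45 UMIs of B and plasma cell markers, against 67 in the deepest.

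These few cells held most mitosis transcripts of the KPCA.B sum. Top2a, which untangles DNA in dividing cells, had 497, 0 and 54.5 CPM in KPCA.B, KPCA.C and KPCA.A NK cells. It was at least 12.5-fold higher in KPCA.B relative to KPCA.C by its exact interval, and 175 of its UMIs in KPCA.B were in the 5 cells and 6 in the other 58. Mki67, a marker of cycling cells, had 335, 10.6 and 54.5 CPM in KPCA.B, KPCA.C and KPCA.A, with UMIs in 4, 1 and 1 cells. Of 20 listed mitosis genes 9 could be compared and all 9 were past 2-fold higher in KPCA.B, with a median log2 ratio of 2.50. In NK cells with fewer than 3 UMIs of mitosis genes the log2 ratio of Mki67 was -0.64 and that of Top2a 1.10, and 120 genes were past 2-fold higher and 70 lower in KPCA.B. The mature, Ly49 and ILC1 lists then had medians of 1.02, 1.09 and -0.83. Ccl5 had 747 CPM in the 5 KPCA.B cells and 5599.8 CPM in the other 58.

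Among genes outside the lists that led the comparison of KPCA.B with KPCA.C, Cbfa2t3 also differed in other cells. Cbfa2t3, a transcriptional corepressor gene, had 134, 0 and 54.5 CPM in KPCA.B, KPCA.C and KPCA.A, with UMIs in 26 of 63, 0 of 17 and 1 of 7 cells. It was at least 3.30-fold higher in KPCA.B relative to KPCA.C by its exact interval, and its log2 ratio in all other barcodes was 1.56.

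Comparisons with KPCA.A rest on its 7 cells. In KPCA.B over KPCA.A, 533 of 2421 genes (22%) were at least 2-fold higher in KPCA.B and 203 (8.38%) at least 2-fold lower. In KPCA.C over KPCA.A, 118 of 557 (21.2%) were at least 2-fold higher in KPCA.C and 37 (6.64%) at least 2-fold lower. With libraries scaled by the median of ratios in place of total UMIs, 816 were higher and 90 lower in KPCA.B, and 204 higher and 15 lower in KPCA.C, with medians of all genes at 0.59 and 0.68 in place of 0.17 and 0.19. The cytotoxic list had 9 of 12 compared members higher in KPCA.B over KPCA.A and 7 of 9 higher in KPCA.C over KPCA.A, 6 and 4 of them past 2-fold. Klra4, without a UMI in KPCA.A, was at least 3.32-fold higher in KPCA.B by its exact interval. Plac8, a small cysteine-rich protein, had 159, 340.3 and 2233 CPM in KPCA.B, KPCA.C and KPCA.A and Ly6a, the stem cell antigen Sca-1, had 46.6, 394 and 817 CPM in KPCA.B, KPCA.C and KPCA.A NK cells.

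Genes of the exocrine pancreas led the KPCA.A side of KPCA.C over KPCA.A. On that of KPCA.B over KPCA.A, Tnfaip3, Plac8 and Ly6a ranked first. Next came Zg16 and Sycn, which encode zymogen granule proteins, at log2 ratios of -3.36 and -3.23. Pancreatic genes were thus among the leaders of the KPCA.A side in both comparisons. Clps, the lipase cofactor colipase, had 294 CPM in KPCA.B, 170.2 CPM in KPCA.C and 2559 CPM in KPCA.A NK cells, against 714, 62.3 and 419 CPM in the other barcodes of those libraries. Pnlip, pancreatic lipase, had 244, 191 and 1797 CPM in KPCA.B, KPCA.C and KPCA.A NK cells, against 474, 53.9 and 327 CPM in other barcodes. Cela1, Prss2 and Try4, which encode digestive proteases, had 2396, 1470.2 and 980.1 CPM in KPCA.A NK cells, against 398, 265 and 204 CPM in its other barcodes. Clps UMIs were in 49 of 63, 10 of 17 and 7 of 7 NK cells. The part of free RNA in these values was not tested.

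RNA of other cell types was measured in the NK cells by fixed marker lists. B and plasma cell markers summed to 1931 CPM in KPCA.B NK cells from 7 of 10 genes, to 447 CPM in KPCA.C from 3 and to 436 CPM in KPCA.A from 2, or 2.12%, 7.99% and 9.91% of the sum in other barcodes, with Iglc2 at 0 in each and Cd79a at 0 by the rule. Igkc, the antibody light chain, had 1295, 149 and 163 CPM in KPCA.B, KPCA.C and KPCA.A NK cells, against 51956, 3086 and 2497 CPM in other barcodes. Macrophage and monocyte markers summed to 1638, 2053 and 2614 CPM from 14, 13 and 5 of 16 genes, led by Ccr2, which NK cells also use, with Adgre1 and Fcgr1 at 0 in each. Epithelial markers summed to 16.5, 85.1 and 54.5 CPM from 3, 4 and 1 of 10 genes, with Epcam, Krt7 and Pax8 at 0. T cell markers summed to 977, 1042 and 708 CPM from 11, 6 and 4 of 16 genes, led by Trbc1, with Cd4, Cd8b1, Cd5, Cd6 and Foxp3 at 0, while the rule itself limits Cd3d, Cd3e and Cd3g. The part of these transcripts in the differences between tumors was not tested.

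Hypoxia and glycolysis genes mostly lay lower in KPCA.B NK cells. Of 24 listed genes 12 could be compared, 2 higher and 10 lower in KPCA.B, 2 past 2-fold higher and 3 past 2-fold lower, with a median log2 ratio of -0.38. Without the 2 cells with dendritic cell markers 4 lay higher and 8 lower, 2 past 2-fold higher and 1 lower, at a median of -0.30. Pgk1, a glycolytic kinase, had 178, 394 and 436 CPM in KPCA.B, KPCA.C and KPCA.A and was 2.21-fold lower in KPCA.B relative to KPCA.C (1.43 to 3.35), with a log2 ratio of -2.06 in all other barcodes. Aldoa, a glycolytic aldolase, had 156, 383 and 599 CPM in KPCA.B, KPCA.C and KPCA.A and was 2.45-fold lower in KPCA.B relative to KPCA.C (1.57 to 3.78), with -1.02 in all other barcodes. Both were just short of 2-fold without the cell with most UMIs of the gene, at log2 ratios of -0.999 for Pgk1 and -0.97 for Aldoa, and without the 2 cells with dendritic cell markers, at -0.97 and -0.95. With at least 3 gate UMIs per cell Pgk1 was at -0.76. The oxidative phosphorylation list had 20 of 26 compared members higher in KPCA.B, with Ndufb2 past 2-fold, and 6 lower, at a median log2 ratio of 0.20. Of all 2869 genes compared 1560 lay higher in KPCA.B. Without cycling cells 15 of 24 members of the oxidative phosphorylation list lay higher and 9 lower, 0 of them past 2-fold. Their median was then 0.07, close to the 0.06 of all genes compared in that setting. B2m, the light chain of MHC class I, had 1536, 3063 and 3648 CPM in KPCA.B, KPCA.C and KPCA.A NK cells and was 1.99-fold lower in KPCA.B relative to KPCA.C (1.72 to 2.30). The MHC class I list had 5 of 16 members higher and 11 lower in KPCA.B, at a median log2 ratio of -0.25. Without cycling cells 15 MHC class I genes could be compared, 6 higher and 9 lower, at a median of -0.09.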

How the data were processed

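Single-cell 3' droplet libraries of 3 omental tumor pools and 1 ascites were read from the deposited matrices. The values are raw UMI counts per gene and barcode, per the file headers, with gene IDs, symbols and barcodes deposited as plain lists (other values, no unit). The file headers name Cell Ranger 4.0.0 for tumors and 3.0.2 for ascites, whereas the submitters' processing notes name Cell Ranger 3.1.0 and mm10. The ascites annotation holds 31053 genes and that of the tumors 32285. Filters, the NK rule, thinning (1 seeded draw, shallower barcodes left out) and ratios were computed with scipy 1.17.1, numpy 2.4.6 and pandas 2.3.3 under python 3.11.15, and plotted with matplotlib 3.10.9. Counts were summed over the NK cells of a library. Intervals are exact Poisson for levels, Clopper-Pearson for shares and conditional for ratios, at 95%. With 1 library per line no test was made. Scripts were tested on simulated data.

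The members and the gene lists were chosen with earlier results of these data known. Beside list members, genes were named as the 5 per direction and pair with the largest log2 ratio at 20 CPM added and at least 30 UMIs over the pair, at least as high in NK cells as in other barcodes of the higher library, leaving out ribosomal, mitochondrial, immunoglobulin, T cell receptor, hemoglobin and unnamed genes, and as the 20 genes highest in NK cells over other barcodes (at least 100 UMIs, 5 CPM added). No doublet caller was run. No NK cell had at least 3 keratin UMIs or at least 5 of Lyz2 and Apoe, so leaving such cells out took out 0 cells and checks nothing. Alternatives covered the cell filter, the NK and Cd3 limits, depth, added CPM, minimum UMIs, scaling, weight of cells and the deepest cell. Leaving out cycling cells, cells with at least 10 dendritic cell marker UMIs, or the cell with most UMIs of a gene was added after seeing the data. Promoter sequences are from RefSeq, GRCm38.p6.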

Additional observations from a re-analysis of the deposited data

How the results depend on the processing

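Shares kept their order under each alternative cell filter and NK limit run. Thinning to 1000 UMIs moved them to 1.27%, 0.246% and 0.0414% in KPCA.B, KPCA.C and KPCA.A, and the ratios to 30.6 for KPCA.B over KPCA.A and 5.95 for KPCA.C over KPCA.A. Genes past 2-fold, higher and lower, were 95 and 70 for KPCA.B over KPCA.C with 50 CPM added. With at least 10 UMIs they were 578 and 263 for KPCA.B over KPCA.C, 2065 and 670 for KPCA.B over KPCA.A, and 436 and 209 for KPCA.C over KPCA.A. With at least 60 UMIs they were 73 and 42, 199 and 84, and 75 and 11, in the same order of pairs. Genes compared numbered 2869, 2421 and 557 at 30 UMIs, 6248, 5706 and 2180 at 10 UMIs and 1365, 1089 and 249 at 60 UMIs, and the share past 2-fold changed too. Median-of-ratios scaling gave 816 and 90 for KPCA.B over KPCA.A and 204 and 15 for KPCA.C over KPCA.A, so that 90.1% and 93.2% of those genes were higher, in place of 72.4% and 76.1%. Without cycling NK cells 120 and 70 genes were past 2-fold for KPCA.B over KPCA.C, and log2 ratios past 2-fold changed sign for Mki67 (-0.64), Birc5 (-0.64), Ube2c (-1.08) and Cenpf (-0.39), as did, among other ratios of at least 0.5 on the log2 scale, those of Dut (-0.95) and Mcm6 (-0.0997). Ube2c also changed sign with the mean of per-cell CPM (-0.37), and the dissociation stress list of KPCA.C over KPCA.A changed sign at 10 UMIs (0.078); the cause was not tested. Of 3360 values of single genes under alternatives 3275 stayed within the interval of the reported value. The sign changed in 5 of 1134 values of genes past 2-fold with all cells and in 123 of 2226 values of other genes. Among list medians it changed in 0 of 92 values past 2-fold with all cells and in 44 of 553 others. Part of these values could not move. Other minimum UMIs, and the removal of cells with keratin or Lyz2 and Apoe UMIs, leave each ratio as it is. The stricter cell filter took out no NK cell of KPCA.B or KPCA.C. These counts thus overstate how stable the ratios were. No paired analysis was possible because each line has 1 library, and for the same reason no library could be left out. The 7 NK cells of KPCA.A, with 18365 UMIs, limit both comparisons that use them.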

Other observations

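Ligands of NK receptors were measured in the other cells of the same tumors. In epithelial-type barcodes Raet1e, a ligand of NKG2D, had 19.95 CPM (17.4 to 22.8) in KPCA.B, 27.9 CPM (26.5 to 29.3) in KPCA.C and 19.4 CPM (17.9 to 21.02) in KPCA.A. Nectin2, a ligand of the activating receptor CD226, had 55.1 CPM (50.7 to 59.7), 17.7 CPM (16.6 to 18.8) and 58.6 CPM (55.9 to 61.3) in the same order, lowest in KPCA.C. H2-T23, which encodes the ligand Qa-1 of the receptor pair of CD94 and NKG2A, had 22.1 CPM (19.4 to 25.1), 89.4 CPM (86.95 to 91.9) and 65.4 CPM (62.6 to 68.3), lowest in KPCA.B. In macrophage-type barcodes, with at least 5 C1q UMIs, Cxcl9, a chemokine for CXCR3, had 234 CPM (225 to 244) in KPCA.B, 104 CPM (99.4 to 109) in KPCA.C and 269 CPM (256 to 283) in KPCA.A. Il15, the survival factor of NK cells, had 6.12 CPM (4.64 to 7.94), 4.48 CPM (3.56 to 5.58) and 3.37 CPM (2.03 to 5.26). Each value is from 1 library, and any relation to the share of NK cells was not tested.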
